A study of Mus musculus with 6 samples.

Results

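Complement, coagulation and fibrinolysis genes were examined as a group of 57 named genes in whole lungs of mouse embryos at E14.5, on single-colour Affymetrix arrays that measured 19946 genes in all. The members were taken by symbol. A gene counted as measured where at least 1 array feature carried its symbol and no other, and where several did, the brightest feature over the 6 arrays stood for the gene. This gave 53 measured members, 24 of complement and 29 of coagulation and fibrinolysis. C3, Cfd and Serpine2 were not analysed here, and the features of Serpina1a also carry the symbols of its close relatives and were not used. Control embryos (3 arrays) carried Shh-Cre, a Cre recombinase driven from the Shh locus, which is active in the lung endoderm that forms the epithelium and not in the lung mesenchyme. Mutant embryos (3 arrays) carried Shh-Cre and loxP-flanked copies of Foxp1, Foxp2 and Foxp4, which encode forkhead transcription factors. The genotype in their labels has Foxp1flox/flox in 2 places besides Foxp4flox/flox, where the series title has Foxp2 as well, and the title was followed. The design text names the mutants by Foxp1/2/4 with the letters DKO, so the sources differ on which genes were deleted. All 6 embryos were on a mixed C57BL/6 and 129X1 background, each array was made from the lung of 1 embryo, and the study asked what these factors do for lung endoderm identity.

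Complement is a cascade of plasma and membrane proteins in which recognition molecules such as C1q or the lectins start proteases that cleave C3 and C5, release the anaphylatoxin peptides and build a pore in the target membrane, while regulators on and off the cell surface hold the cascade back. Coagulation is a second protease cascade, started by tissue factor, that makes thrombin and from fibrinogen a fibrin clot. Anticoagulants such as thrombomodulin limit it, and plasmin dissolves the clot. The liver makes most of the plasma proteins of both cascades, and macrophages, endothelium and epithelia make others locally, clusterin and tissue factor among those known from epithelia.

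Values are robust multi-array average (RMA) expression values on a log2 scale, differences are given as mutant minus control and carry the standard error (SE) from limma's moderated fit, and adjusted p-values are Benjamini-Hochberg values over all 19946 genes with a threshold of 0.05. The check of the genotype showed Foxp2 at -0.95 ± 0.05 (adjusted p = 4.75e-05), Foxp4 at -0.64 ± 0.10 (adjusted p = 0.00591) and Foxp1 at -0.31 ± 0.08 (adjusted p = 0.0661), in lung tissue that includes cells Shh-Cre does not reach. Correlations between arrays were at least 0.994 within a group and between 0.988 and 0.991 across the groups. To mark dim values, the 95th percentile of 1190 olfactory and vomeronasal receptor genes, 5.86, was taken as a background level. Both group means lay below it for 19 of the 53 members and for 5407 of all 19946 genes. A small difference of such a gene cannot be measured well here, and RMA compresses the fold changes of dim genes.

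Among the 53 members, Cpn1 and Fgg were higher in the mutant lungs and Cfi, Clu, Cd55, F3 and Thbd were lower, while 46 did not pass the threshold. The 7 called members are 13.2% of those measured, beside 7.66% (1528) of all genes. The members were chosen with earlier results of these data known, so this share and those below only describe the list. By direction, 2 of 53 were higher beside 3.84% of all genes, and 5 of 53 were lower beside 3.83%. The counts by role and by marker list below stand beside these same shares of all genes. The median difference of the members was 0.0086, against -0.0055 for all genes. The mutant values lay wholly above or wholly below the control values for 19 members (35.8%), 10 above and 9 below, beside 25.9% of all genes. An unadjusted p under 0.05 was reached by 17 members (32.1%), beside 19.8% of all genes, and a call with at least a 1.5-fold change by 6 members (11.3%), beside 2.75%. These 6 include Fgg, whose means both lay below the background level, so that its fold is not reliable. All 7 called members are among the 19 without overlap, and the plot of their values by array shows how far apart the groups stood.

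**Figure D1:**
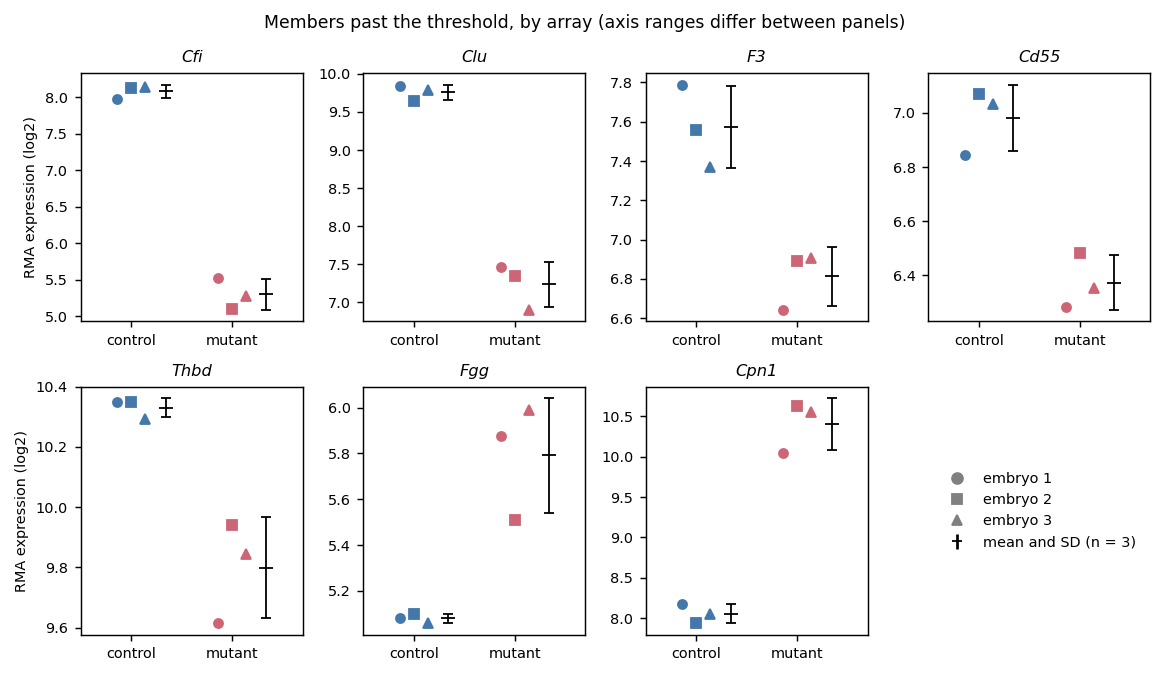
RMA expression (log2, y axis) of the 7 members past the threshold in 3 control (blue) and 3 mutant (red) embryos, with the group mean and SD (n = 3) in black; the axis range differs between panels. In each panel the groups are apart, with differences of means from -2.78 for Cfi to 2.35 for Cpn1 and the smallest, -0.53, for Thbd.

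Promoter letters are shown for the gene with the largest rise, Cpn1, and for the 3 fibrinogen genes, which lie next to each other on chromosome 3 and of which Fgg passed while Fga and Fgb did not. They were searched for 3 forms of the forkhead core, with TGTTTAC as the canonical letters, TATTTAC as a variant and TGTTTGT as another, on both strands in the 250 bases before the annotated start. The sequences are those of RefSeq on GRCm38.p6, 5′ to 3′ along the gene, with matches in capitals and positions counted from the start. The Cpn1 stretch ends at -32 because the annotated gene extends slightly further than this start.
Cpn1 (chr19:43986552-43986770, minus strand, positions -250 to -32): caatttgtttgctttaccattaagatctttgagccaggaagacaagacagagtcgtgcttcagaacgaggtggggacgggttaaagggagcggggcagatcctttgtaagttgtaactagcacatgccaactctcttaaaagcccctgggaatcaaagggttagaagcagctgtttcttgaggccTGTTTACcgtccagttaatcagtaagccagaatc
Fgg (chr3:83007474-83007723, plus strand, positions -250 to -1): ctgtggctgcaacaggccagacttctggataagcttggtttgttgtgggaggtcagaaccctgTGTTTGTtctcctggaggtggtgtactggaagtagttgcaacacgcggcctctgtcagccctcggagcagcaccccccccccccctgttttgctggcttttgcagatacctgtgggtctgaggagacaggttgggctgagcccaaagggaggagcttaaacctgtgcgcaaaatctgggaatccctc
Fga (chr3:83025903-83026152, plus strand, positions -250 to -1): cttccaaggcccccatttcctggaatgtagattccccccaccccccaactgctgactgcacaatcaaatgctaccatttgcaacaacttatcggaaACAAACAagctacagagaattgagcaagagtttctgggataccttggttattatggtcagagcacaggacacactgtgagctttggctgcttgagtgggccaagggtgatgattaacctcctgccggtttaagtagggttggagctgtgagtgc
Fgb (chr3:83049864-83050113, minus strand, positions -250 to -1): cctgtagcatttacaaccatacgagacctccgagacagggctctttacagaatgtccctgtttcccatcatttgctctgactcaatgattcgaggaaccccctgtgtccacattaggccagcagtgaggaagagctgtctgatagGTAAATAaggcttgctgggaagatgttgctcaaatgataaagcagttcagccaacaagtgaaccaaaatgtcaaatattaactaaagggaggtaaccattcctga
The Cpn1 window held TGTTTAC from position -65, a form found in 3.17% of the 32851 promoter windows of the same length. Fgg held TGTTTGT from position -187 and Fga its reverse complement from position -154, a form found in 5.84% of all windows. Fgb held the reverse complement of TATTTAC from position -105, as 2.73% of all windows do on either strand. At least 1 of the 3 forms was in 11.1% of all windows. Of the 7 called members, 4 had a window in the table, and those of Cd55 and F3 held none of these letters. The windows of C1s1 (2), Susd4 (2) and Habp2 (1), genes of the same cascades given further below, were searched as well. These held none of the letters either. A match is a description of the letters, and binding was not measured here. The means of Fgg, Fga and Fgb all lay below the background level in both groups, and their levels are given with the fibrinogen values.

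In the recognition and early protease steps of complement, 0 of 7 members passed. C1qa, C1qb and C1qc encode the subunits of C1q, which starts the classical pathway and in tissues comes mainly from macrophages. C1qb read 8.40, 7.96 and 8.23 in the control lungs (embryos 1 to 3), against 8.28, 8.73 and 8.70 in the mutant lungs (embryos 1 to 3). C1qc read 7.43, 7.01 and 7.35 in the control lungs, against 7.43, 7.58 and 7.75 in the mutant lungs. C1qa read 7.14, 6.999 and 6.99 in the control lungs, against 7.14, 7.31 and 7.30 in the mutant lungs. In all 3 subunit genes mutants 2 and 3 lay above every control, and mutant 1 lay within or at the upper edge of the controls. The differences were 0.37 ± 0.15 for C1qb, 0.33 ± 0.12 for C1qc and 0.21 ± 0.07 for C1qa (limma adjusted p 0.201, 0.182 and 0.146). Without mutant 1, C1qb was at 0.52 and passed (adjusted p = 0.0468), but leaving out the lowest mutant favours a rise. C1ra, a protease of the C1 complex (0.14 ± 0.10), C2, the protease of the classical C3 convertase (-0.045 ± 0.095), and the lectin pathway proteases Masp1 (0.10 ± 0.07) and Masp2 (-0.24 ± 0.11) did not pass either, with adjusted p from 0.260 to 0.862. The means of C1ra and C2 in both groups, and the mutant mean of Masp2, were below the background level.

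Macrophage markers are given beside C1q. Of 16 such markers 3 were higher and 0 lower in mutants, namely Adgre1 (0.49 ± 0.10), Csf1r (0.43 ± 0.09) and Cx3cr1 (0.39 ± 0.10), with adjusted p of 0.0209, 0.0208 and 0.0473. These calls were lost without control 2 (adjusted p 0.0937, 0.0954 and 0.162) and held in 2, 4 and 2 of the 6 fits that leave out an array. The other 13 markers did not pass and lay on both sides of 0, from -0.33 to 0.37. For 5 of the 16 both group means were below the background level. The median deviation of the list from the control means was -0.0030, -0.035 and 0.039 in the control lungs and, in the mutant lungs, 0.059, 0.16 and 0.22, and that of the C1q genes was 0.17, -0.24 and 0.034 in the control lungs and, in the mutant lungs, 0.10, 0.32 and 0.49. The mean level of the list ran from 6.94 to 7.02 in controls and from 7.02 to 7.20 in mutants. The part of macrophage number in the C1q values was not tested, and in whole tissue a change in cell number and a change in RNA per cell cannot be told apart. C3ar1, the receptor of the C3a peptide on myeloid cells, read 7.53, 7.36 and 7.75 in the control lungs, against 7.52, 7.94 and 7.99 in the mutant lungs. Mutants 2 and 3 again lay above every control, and the difference was 0.27 ± 0.14 (adjusted p = 0.353). The C5a receptor gene C5ar1 was at -0.049 ± 0.078 (adjusted p = 0.813).

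**Figure D2:**
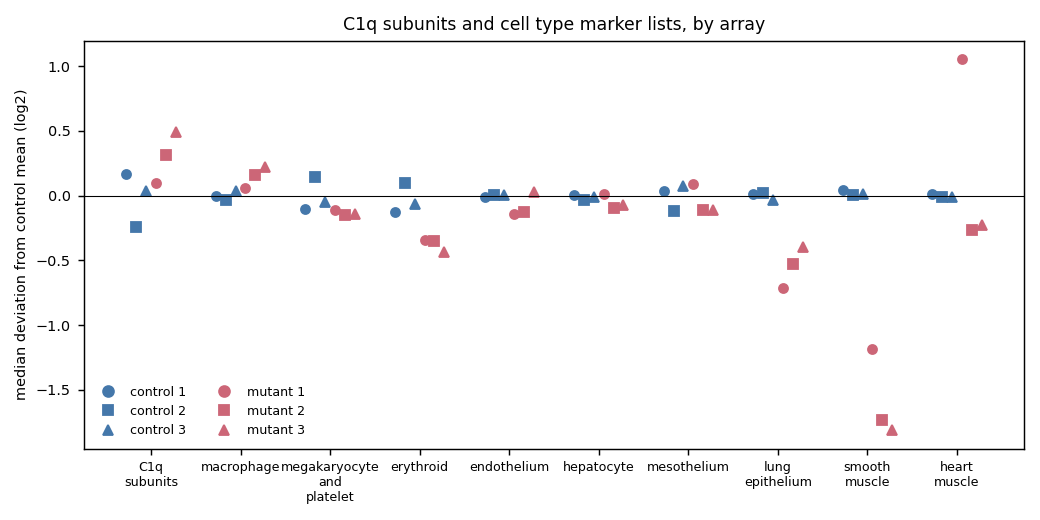
Median deviation from the control mean (log2, y axis) of the 3 C1q subunit genes and of 9 cell type marker lists (x axis) in each of 3 control (blue) and 3 mutant (red) embryos. The macrophage list reached 0.22 in mutant 3, the lung epithelium list lay at -0.39 or lower in every mutant, and the heart muscle list was at 1.05 in mutant 1 alone.

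Cpn1 showed the largest rise of the members. It encodes the catalytic subunit of carboxypeptidase N, a plasma enzyme that inactivates the anaphylatoxins and kinins by removing their last basic residue. Cpn1 (feature 10467887) read 8.17, 7.94 and 8.05 in the control lungs, against 10.04, 10.63 and 10.56 in the mutant lungs. The groups were apart by more than the spread within either. The mean went from 8.05 ± 0.12 (SD, n = 3) to 10.41 ± 0.32, a difference of 2.35 ± 0.15 or 5.11-fold (adjusted p = 9.4e-05). With each array left out in turn the adjusted p was at most 0.00141. Its partner gene Cpn2, which encodes the stabilising subunit, read 4.84, 4.83 and 4.88 in the control lungs, against 4.89, 4.80 and 4.94 in the mutant lungs, with a difference of 0.028 ± 0.059 (adjusted p = 0.863). Both Cpn2 means lay below the background level, so a rise from a low level could have been missed.

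The alternative pathway members measured were Cfb, the protease of its convertase (0.0048 ± 0.067), and Cfp, the stabilising factor properdin (0.013 ± 0.084), and neither passed. Of the 5 genes of the terminal complex that forms the membrane pore, 0 passed. C7 came nearest, at 5.64, 5.66 and 5.70 in the control lungs and, in the mutant lungs, 6.10, 5.82 and 5.78, with all mutants above the controls and mutant 1 highest (0.24 ± 0.09, adjusted p = 0.176). C6 was at -0.15 ± 0.07, C8a at 0.069 ± 0.097, C8b at -0.0085 ± 0.064 and C9 at 0.0086 ± 0.056. The means of C6, C8a, C8b and C9 all lay below the background level in both groups.

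Of the 6 complement regulators 3 fell, and these include the largest falls of the whole group. Cfi encodes factor I, the protease that cuts the active forms of C3 and C4 into inactive pieces. Cfi (feature 10496001) read 7.97, 8.12 and 8.14 in the control lungs, against 5.52, 5.09 and 5.28 in the mutant lungs. The highest mutant lay 2.45 log2 units below the lowest control, and all mutant values were under the background level. The difference was -2.78 ± 0.11 (adjusted p = 1.08e-05), or at least 4.66-fold when the mutant level is taken as the background level. Clu encodes clusterin, a secreted chaperone that also binds the forming terminal complex. Its feature (10416057) read 9.84, 9.65 and 9.79 in the control lungs, against 7.46, 7.35 and 6.90 in the mutant lungs, again with no overlap and with mutant 3 lowest. It fell from 9.76 ± 0.10 (SD, n = 3) to 7.24 ± 0.30, a difference of -2.52 ± 0.14 or 5.75-fold (adjusted p = 4.75e-05). Both calls held with each array left out in turn, with adjusted p of at most 0.000218 for Cfi and 0.000934 for Clu.

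Cd55 encodes decay-accelerating factor, a membrane-anchored protein that takes C3 convertases apart. Cd55 (feature 10357488) read 6.84, 7.07 and 7.03 in the control lungs, against 6.28, 6.48 and 6.35 in the mutant lungs. The groups did not overlap, and the difference was -0.61 ± 0.08 or 1.53-fold (adjusted p = 0.00362, and at most 0.0247 with an array left out). Its neighbouring paralog Cd55b was below the background level in both groups at -0.24 ± 0.08 (adjusted p = 0.11), and reads of such close relatives on an array are uncertain because probes can cross-hybridise. Cd59a, whose membrane protein blocks the addition of C9, read 8.83, 8.85 and 8.66 in the control lungs, against 8.04, 8.63 and 8.76 in the mutant lungs. Only mutant 1 stood clearly below the controls, and the difference of -0.31 ± 0.17 did not pass (adjusted p = 0.392). The heart muscle list was raised in the same mutant 1 (median deviation 1.05, against -0.27 and -0.23 in mutants 2 and 3). Of its 15 markers 0 were higher over all mutants and 1 was lower, Smpx (-0.99 ± 0.19, adjusted p = 0.0166, and 0.0793 without control 3), and the largest difference was that of Actc1, cardiac actin, at 10.98, 11.08 and 10.88 in the controls and, in the mutants, 11.37, 8.70 and 8.61 (-1.42 ± 0.65, adjusted p = 0.278). With that list's median as a covariate Cd59a passed at -0.31 (adjusted p = 0.0222), and without mutant 1 it was at -0.085. Serping1, the C1 inhibitor, read 9.35, 9.49 and 9.31 in the control lungs, against 9.36, 9.44 and 9.50 in the mutant lungs (0.048 ± 0.069). Vtn, which encodes vitronectin, an adhesive protein that also binds the terminal complex, was dim in both groups (0.047 ± 0.063).

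**Figure D3:**
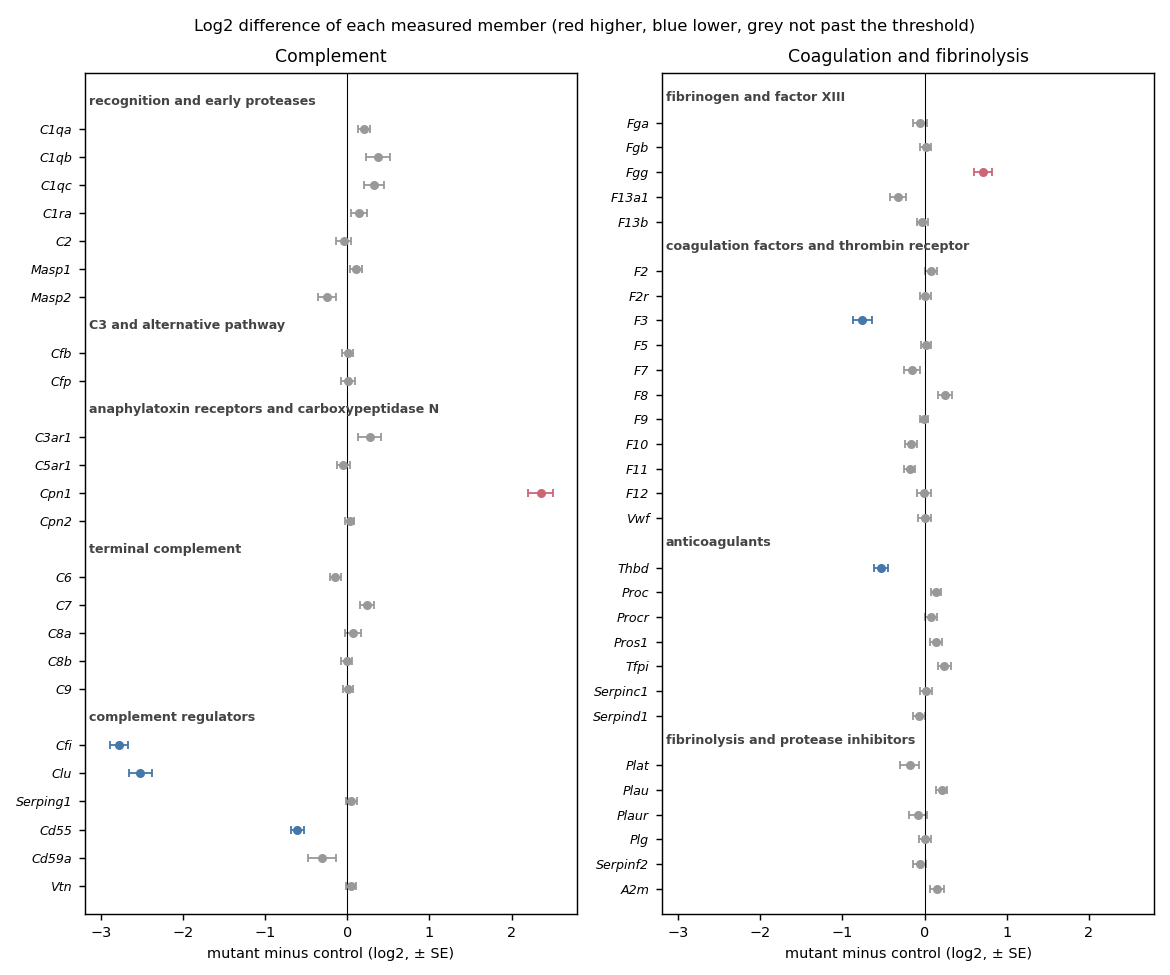
Mutant minus control difference (log2, x axis) with its SE for each of the 53 measured members, by role, complement at left and coagulation and fibrinolysis at right. Cpn1 and Fgg (red) were higher, Cfi, Clu, Cd55, F3 and Thbd (blue) were lower, and the other 46 (grey) lay between -0.32 and 0.37.

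Fibrinogen is a plasma protein built from 3 chains that are encoded by Fga, Fgb and Fgg. Fgg (feature 10492735) read 5.08, 5.10 and 5.06 in the control lungs, against 5.88, 5.51 and 5.99 in the mutant lungs. All mutants lay above the tightly grouped controls, with mutant 2 nearest to them. The difference was 0.71 ± 0.11 (adjusted p = 0.00821, and at most 0.0448 with an array left out). Both means, 5.08 and 5.79, were below the background level, so no fold is given. Fga read 5.61, 5.46 and 5.70 in the control lungs, against 5.48, 5.45 and 5.68 in the mutant lungs (-0.056 ± 0.088), and a dimmer feature of this gene ran from 5.42 to 5.55 in controls and from 5.37 to 5.50 in mutants. Fgb read 5.29, 5.30 and 5.39 in the control lungs, against 5.37, 5.26 and 5.38 in the mutant lungs (0.012 ± 0.061). For both of these genes the groups overlapped, and the means of both groups lay below the background level, so a small change could have been missed. In the RefSeq annotation Fgg, like Cfi and Cd55, overlaps a long noncoding gene, and whether a feature also reads that RNA was not tested.

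Markers of hepatocytes, the main source of fibrinogen and of carboxypeptidase N in plasma, are given beside Fgg and Cpn1. Of 14 hepatocyte markers 8 lay below the background level in both groups, so changes in them may be missed. By the threshold 0 were higher in mutants, and 1 was lower, Afp (-0.28 ± 0.06, adjusted p = 0.0303, and 0.127 without control 3). The mutant mean of Afp, 5.64, was below that level as well. The largest differences of the list went in opposite directions and did not pass. Albumin (Alb) was below the background level in both groups, at 5.61 ± 0.20 (SD, n = 3) and 5.23 ± 0.07 (-0.38 ± 0.10, adjusted p = 0.0617). Apoa1, an apolipoprotein gene, read 7.03, 7.13 and 6.94 in the controls, against 7.17, 7.45 and 7.55 in the mutants, with every mutant above the controls (0.35 ± 0.10, adjusted p = 0.0883, and from 0.0129 to 0.288 with an array left out). The mean level of the list ran from 5.96 to 6.00 in controls and from 5.91 to 5.95 in mutants. Factor XIII crosslinks fibrin. F13a1, its catalytic subunit gene, read 8.91, 8.68 and 8.84 in the control lungs, against 8.67, 8.43 and 8.36 in the mutant lungs. The groups were separated by only 0.0051 and the difference was -0.32 ± 0.10 (adjusted p = 0.0966). It passed without mutant 1 (-0.41, adjusted p = 0.0257), but leaving out the highest mutant favours a fall. It also passed with the heart muscle covariate (-0.32, adjusted p = 0.0294), in which the same mutant 1 stands apart. F13b was dim in both groups (-0.026 ± 0.069).

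Of the 11 coagulation factor and thrombin receptor genes, F3 alone passed. F3 encodes tissue factor, the membrane protein that starts coagulation by binding factor VII. F3 (feature 10495675) read 7.79, 7.56 and 7.37 in the control lungs, against 6.64, 6.89 and 6.91 in the mutant lungs. The controls were spread over 0.418 log2 units and the lowest of them still lay above every mutant. The mean fell from 7.57 ± 0.21 (SD, n = 3) to 6.81 ± 0.15, a difference of -0.76 ± 0.12 or 1.69-fold (adjusted p = 0.00664, and at most 0.0315 with an array left out). F8, the cofactor that is lacking in haemophilia A, read 6.91, 6.88 and 6.76 in the control lungs, against 7.22, 7.15 and 6.94 in the mutant lungs. The mutants lay above the controls by a narrow margin in mutant 3, and the difference of 0.25 ± 0.08 fell short of the threshold (adjusted p = 0.134), and reached it at 0.33 without mutant 3, the lowest mutant (adjusted p = 0.0448). F11 was at -0.18 ± 0.07, F10 at -0.16 ± 0.07 and F7, the ligand of tissue factor, at -0.15 ± 0.10 (adjusted p from 0.171 to 0.454). F2, which encodes prothrombin, F5, F9 and F12 lay between -0.0072 and 0.075. The means of F2, F5, F7, F9 and F11 were below the background level in both groups, so small changes could have been missed. F2r, the thrombin receptor PAR1, read 10.42, 10.38 and 10.56 in the control lungs, against 10.42, 10.51 and 10.46 in the mutant lungs, with full overlap (0.010 ± 0.066). Vwf, the platelet-tethering protein of endothelium and megakaryocytes, read 7.71, 7.85 and 7.72 in the control lungs, against 7.83, 7.61 and 7.85 in the mutant lungs (0.0031 ± 0.081).

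Among the 7 anticoagulant genes Thbd fell. It encodes thrombomodulin, the surface receptor that turns thrombin into an activator of protein C. Thbd (feature 10488378) read 10.35, 10.35 and 10.29 in the control lungs, against 9.61, 9.94 and 9.84 in the mutant lungs. The controls lay within 0.057 of each other and every mutant was at least 0.353 below them. The difference was -0.53 ± 0.09 or 1.45-fold (adjusted p = 0.00841, and at most 0.0445 with an array left out). Procr, the endothelial receptor that presents protein C to this complex, read 7.43, 7.42 and 7.37 in the control lungs, against 7.62, 7.36 and 7.47 in the mutant lungs (0.077 ± 0.074) with overlap between the groups. Proc, protein C itself (0.14 ± 0.06), and Pros1, its cofactor protein S (0.14 ± 0.07), had mutants above controls without passing (adjusted p 0.245 and 0.314). Tfpi, the inhibitor of the tissue factor complex, read 9.95, 9.998 and 10.001 in the control lungs, against 10.16, 10.38 and 10.13 in the mutant lungs. All mutants lay above the controls, and the difference of 0.24 ± 0.08 did not pass (adjusted p = 0.114). The thrombin inhibitors Serpinc1 (0.014 ± 0.073) and Serpind1 (-0.065 ± 0.075) were at 5.95 or below on all arrays.

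Endothelial and platelet markers are given here because Thbd, Vwf, Tfpi and F8 are known from these cells. Of 14 endothelial markers 1 was higher, Eng (0.37 ± 0.06, adjusted p = 0.00887, and 0.0532 without control 2), and 0 passed as lower. The other 13 were all below 0, from -0.0035 to -0.29 for Erg (adjusted p = 0.0521). For 4 of them every mutant lay below the controls. The median deviation of the list was -0.14, -0.13 and 0.029 in the mutant lungs (embryos 1 to 3). The mean endothelial level ran from 9.84 to 9.86 in controls and from 9.71 to 9.88 in mutants. Of 8 megakaryocyte and platelet markers Itgb3 was lower (-0.52 ± 0.08, adjusted p = 0.00673) and Ppbp, at 7.74, 8.87 and 8.21 in the control lungs and, in the mutant lungs, 7.38, 7.40 and 7.25, did not pass (adjusted p = 0.0587). Of 7 erythroid markers 4 were lower, led by Slc4a1 (-1.09 ± 0.16) and Alas2 (-1.04 ± 0.16). The mean erythroid level ran from 7.86 to 8.15 in controls and from 7.48 to 7.55 in mutants. The part of blood content in the values of F13a1 and Vwf was not tested. Of 9 neutrophil markers 0 passed, with Mpo (-0.21) and Camp (-0.17) farthest from 0. Of 10 mesothelial markers 1 was higher, Lrrn4 (0.67 ± 0.12, adjusted p = 0.0157, and 0.0725 without control 1), and Aldh1a2 was at -0.31 (adjusted p = 0.298).

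In fibrinolysis and among the protease inhibitors 0 of 6 measured members passed, and their differences lay between -0.18 and 0.21. Plau, which encodes urokinase, the plasminogen activator of tissues, read 6.76, 6.55 and 6.63 in the control lungs, against 6.91, 6.80 and 6.85 in the mutant lungs. The mutants lay above the controls by a small margin (0.21 ± 0.07, adjusted p = 0.137). Plat, the tissue-type activator, went the other way with overlap, at 8.84, 8.65 and 8.64 in the control lungs and, in the mutant lungs, 8.79, 8.37 and 8.44 (-0.18 ± 0.11, adjusted p = 0.465). Plaur, the urokinase receptor, was at -0.080 ± 0.110, Plg, plasminogen, at 0.0074 ± 0.070, Serpinf2, the plasmin inhibitor, at -0.060 ± 0.075 and A2m, a broad protease trap, at 0.15 ± 0.09. The means of Plg were below the background level in both groups.

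The falls of Cfi, Clu, Cd55, F3 and Thbd stood beside lower epithelial and smooth muscle markers. Of 15 lung epithelial markers 12 were lower and 0 higher, and the mean level of the list ran from 9.61 to 9.64 in controls and from 8.51 to 8.72 in mutants. The falls in this list went from Sftpc (-5.58 ± 0.06), the surfactant gene of the distal epithelium, and Krt7 (-1.44 ± 0.06), a keratin gene, to Epcam (-0.33 ± 0.08, adjusted p = 0.0384), which is shared by most epithelia and whose call held in 1 of the 6 fits that leave out an array (highest adjusted p 0.147, reached when control 1 was left out). Of 9 smooth muscle markers 7 were lower, led by Myh11 (-2.57 ± 0.32) and Cnn1 (-2.21 ± 0.37), with the mean level between 9.52 and 9.56 in controls and between 7.87 and 8.45 in mutants. Which cells carry the 5 genes was not measured, and the part of these cell types in their falls was not tested. Without mutant 1, where the heart muscle list stood highest, all 7 called members still passed. Mutants 2 and 3 were below the controls in that list (median deviation -0.27 and -0.23), and the part of heart tissue in the calls was not tested.

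Other genes of the same cascades were read from the same fit. Of 32 other complement genes measured, Susd4 fell and C1s1 rose, and 30 did not pass, with a list median of -0.053. Susd4, a membrane inhibitor of the classical and lectin convertases, read 8.79, 8.71 and 8.80 in the control lungs, against 7.74, 7.49 and 7.78 in the mutant lungs. The groups were far apart, and the difference was -1.09 ± 0.08 or 2.13-fold (adjusted p = 0.000214, and at most 0.00289 with an array left out). C1s1, the partner protease of C1r, read 4.72, 4.63 and 4.58 in the control lungs, against 4.91, 4.996 and 5.12 in the mutant lungs. Its mutants lay above the controls at a level below background (0.36 ± 0.07, adjusted p = 0.0194), and the call was lost without control 2, control 3 or mutant 3 (adjusted p 0.0858, 0.0954 and 0.0532). Of 28 other coagulation and fibrinolysis genes Habp2 fell and 27 did not pass, with a list median of -0.065. Habp2, a plasma protease that can activate factor VII and urokinase, read 7.89, 7.56 and 7.59 in the control lungs, against 6.20, 6.20 and 6.32 in the mutant lungs. The highest mutant lay 1.24 log2 units below the lowest control, and the difference was -1.44 ± 0.09 or 2.72-fold (adjusted p = 0.000109, and at most 0.00122 with an array left out). Habp2 overlaps a long noncoding gene and Nrap, a muscle gene, in the annotation. The called shares, 2 of 32 and 1 of 28, stand beside 7.66% of all genes. Both group means lay below the background level for 15 of the 32 and 10 of the 28.

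**Figure D4:**
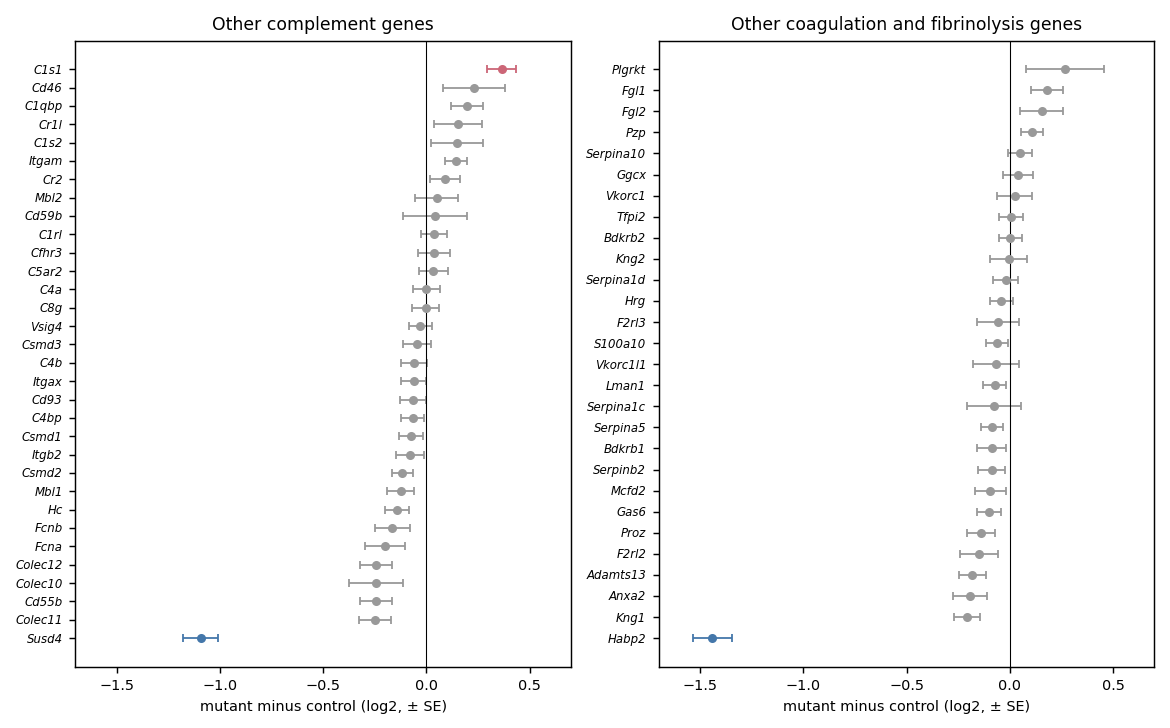
Mutant minus control difference (log2, x axis) with its SE for 32 other complement genes (left) and 28 other coagulation and fibrinolysis genes (right), in order of the difference. Susd4 (-1.09) and Habp2 (-1.44), in blue, fell, C1s1 (0.36), in red, rose, and the grey genes did not pass the threshold.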

How the data were processed

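RNA of 6 whole embryonic lungs, 3 control and 3 mutant, was measured on 1 array each. The deposited log2 values were made by the authors with RMA, and the submitters' processing notes name oligo, RMA and limma; the sources used here give no settings, versions or genome build. RMA subtracts background, normalizes arrays together and summarises probes. The values carry no detection calls. Separately, the number of arrays limits the precision.

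Of 35556 features, 21797 had a single gene symbol in the platform annotation and 1613 had several, and the former gave 19946 genes. Groups were compared by limma 3.58.1 under R 4.3.3 (lmFit, eBayes; 2-sided; no term besides genotype), adjusted over all genes. The fit was run on simulated data with known changes, as a check of the code only. The simulation gave both groups the same spread, while the median SD of the genes was 0.061 in controls and 0.095 in mutants. Every member is accounted for, with all array values for members past the threshold. Other pathway genes are named only past it, except Cd55b, chosen after its value was seen as the paralog of Cd55. Marker lists are given by counts of calls and their 2 largest differences. The markers Cx3cr1, Afp and Epcam, which passed, were named as well after their values were seen. The members and lists were chosen with earlier results of these data known. RefSeq supplied the promoter windows, which 39 measured members have, and gene order.

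Alternatives were repeated quantile normalization, median centring, dropping the dimmest genes (the lowest of 3 equal parts by mean), testing all features, averaging features, variance trend with robust moderation, array weights, the replicate number as a block, the heart muscle list as a covariate, each array left out, and thresholds of 0.1 or of 1.5-fold in addition.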

Additional observations from a re-analysis of the deposited data

How the results depend on the processing

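All 7 called members kept their direction and stayed past the threshold under every alternative that tested them, except that Fgg was not tested without the dimmest genes, which left 1 member higher, and Thbd fell short of the 1.5-fold requirement. Added calls among the members were C7 (0.24, adjusted p = 0.0377), Cd59a and F13a1 with the heart muscle covariate, C1qb or F13a1 without mutant 1, F8 without mutant 3, and F13a1 at a threshold of 0.1. The count of other complement genes went from 2 to 1 with the 1.5-fold requirement, without the dimmest genes and with the replicate block, under which C1s1 did not pass (adjusted p = 0.0616), and lay between 1 and 3 with an array left out. The count of other coagulation and fibrinolysis genes was 2 with array weights and 1 to 2 with an array left out. Over all genes, 549 were called with the 1.5-fold requirement and 774 to 1745 with an array left out, against 1528. The labels do not say whether replicate numbers pair the embryos. The deviations of same-numbered arrays correlated at -0.069, 0.049 and 0.15, against -0.15 to 0.079 for the other pairs, and so few arrays cannot settle it. The replicate block left all 7 member calls in place, with 1137 of all genes called. Dim members cannot fall far on these arrays, and 3 embryos a group limit what small differences can show, so missing the threshold does not show that a member stayed level.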
